A study of Arabidopsis thaliana with 33 samples.

Results

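Expression of 67 Arabidopsis loci was higher in high light (HL) than in low light (LL) at 3.5 hr after an increase in irradiance in Col-0, and close to the LL control at 1 and 25 hr. They were chosen from the values themselves, as the loci whose HL minus LL change on the log2 scale was 0.8 to 1.5 at 3.5 hr and within -0.3 to 0.3 at 1 hr and at 25 hr, with all 3 HL arrays above all 3 LL arrays at 3.5 hr. They are 67 of the 27826 loci measured, or 0.241%. The Col-0 changes at these 3 time-points are therefore the choice itself and are described without a test. The arrays that had no part in the choice are those of the accessions Ga-0 and Ts-1 and of Col-0 in LL at -23 hr.

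Whole rosettes were measured on Affymetrix AraGene arrays, with 3 arrays per group, 11 groups and 33 arrays in all. All plants were wild-type accessions, grown from sowing in LL at 100 μmol m-2 s-1 with days shorter than nights, and the HL groups received 550 μmol m-2 s-1 from the start of the light period of day 25 after sowing. Col-0 was sampled in HL and LL at 1, 3.5 and 25 hr after that moment and in LL at -23 hr, and Ga-0 and Ts-1 were sampled in HL and LL at 1 hr. Each replicate was a pool of 3 rosettes, per the methods of the study, and all leaf cell types are mixed in it, so that more transcript per cell and more cells of a type cannot be told apart. The times of -23, 1 and 25 hr fall at the same hour of the light period, and 3.5 hr falls later in it.

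A rise in irradiance above what the leaf can use brings more sugar from photosynthesis together with excess excitation and warming of the leaf. Leaves store part of the carbon as starch in the plastid during the day and break it down at night, and many genes of starch turnover, hormone breakdown and secondary metabolism have a daily rhythm of transcript level. A difference between HL and LL at one hour of the day can therefore lie in the HL plants, in the LL plants or in both, and the time course in each light was described for that reason.

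The values deposited hold the digits of the expression values without their decimal separator, so that each value is known up to a power of 10. The power of 10 of each array was taken as the one nearest to its control. A true change beyond 3.16-fold (1.66 on the log2 scale) is then shown as a smaller one, often in the opposite direction, and levels of different genes cannot be compared. For the same reason the presence of leaf markers could not be checked. A locus was called at a Benjamini-Hochberg adjusted p below 0.05 from limma and a change beyond 1.4-fold. On the log2 scale the typical spread between replicates was 0.11 (median residual SD over all loci), and the median of each array, after centring of the loci, lay between -0.044 and 0.035.

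Over the 67 loci the change at 3.5 hr had a median of 0.92 (range 0.81 to 1.34), with an SE of the fit between 0.071 and 0.185. For 24 of them it was at least 2-fold. The median change was 0.02 at 1 hr (range -0.22 to 0.30) and 0.14 at 25 hr. Of all loci, 3.94% were called up and 3.77% down at 3.5 hr, and 17.5% had all HL arrays above all LL arrays. The 67 chosen loci were all among those called up, which follows from how they were chosen. At 1 hr 1.79% of all loci were called up and 1.04% down, and at 25 hr 2.58% and 2.47%. The largest changes were those of DEWAX (At5g61590, 1.34), a transcription factor that represses wax synthesis, of At2g30830 (1.32), annotated as a 2-oxoglutarate-dependent dioxygenase, and of GBSS1 (At1g32900, 1.29), the starch synthase that makes amylose. They were followed by RXW8 (At1g58520, 1.28), by CP1 (At5g49480, 1.27), a Ca2+-binding protein, by JMT (At1g19640, 1.26), which methylates jasmonic acid, and by HBP1 (At1g17100, 1.21), a haem-binding protein.

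**Figure D1:**
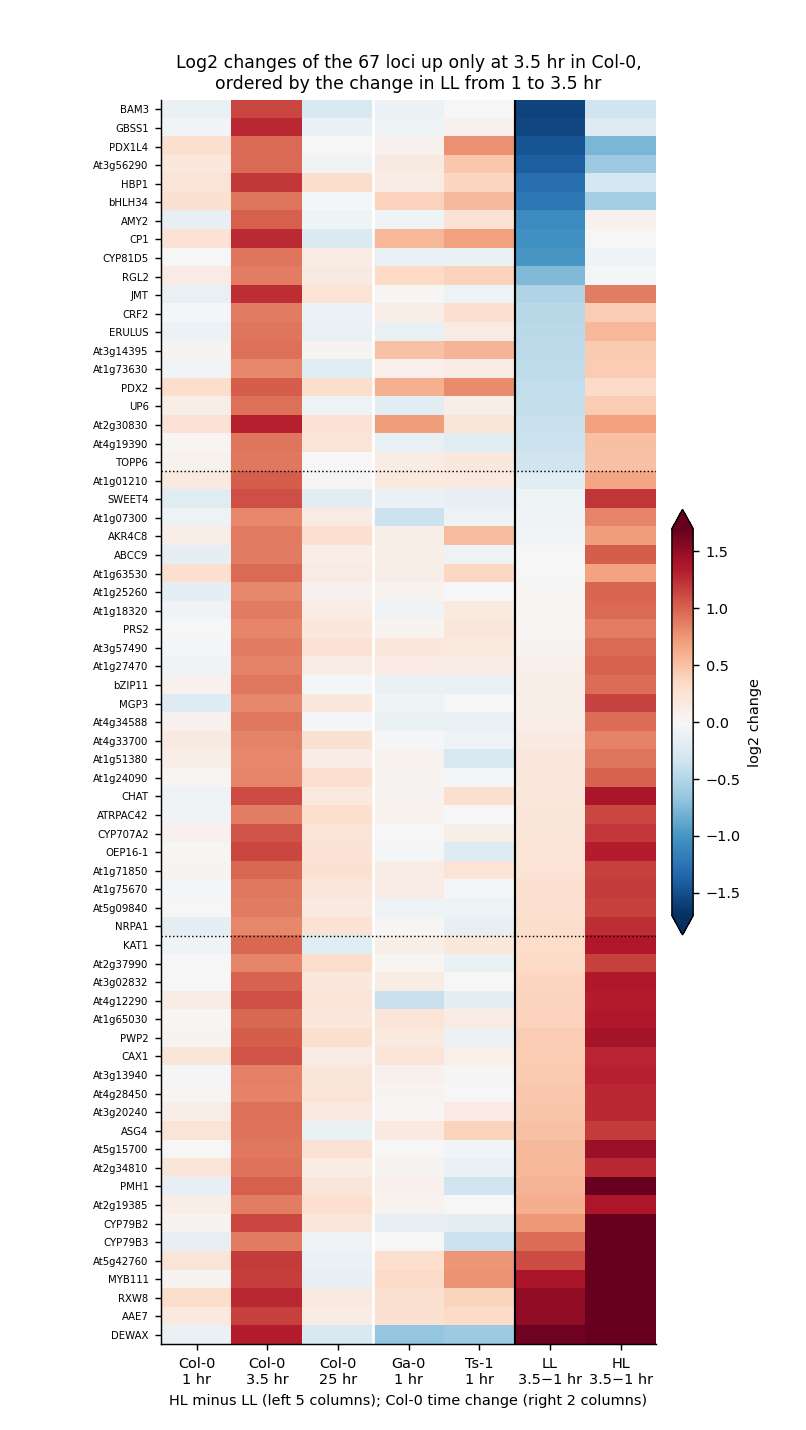
Log2 changes of the 67 loci, 1 row per locus, ordered by the change of Col-0 in LL from 1 to 3.5 hr. The left 5 columns hold HL minus LL in Col-0 at 1, 3.5 and 25 hr and in Ga-0 and Ts-1 at 1 hr, and the right pair of columns hold the 3.5 hr minus 1 hr change in LL and in HL; red is higher, blue lower, colours end at 1.7, and dotted lines part the 20, 25 and 22 loci described in the text.

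The loci came to the same difference at 3.5 hr along different paths. Since the changes at 1 and at 3.5 hr are fixed by the choice, the HL part of the time change is close to the LL part plus 1. The choice sets no limit on the LL part. It does favour loci whose LL arrays at 3.5 hr are low or whose HL arrays are high. The shares below are therefore partly a result of the choice. In LL, 20 of the 67 loci (29.9%) were lower at 3.5 hr than at 1 hr by more than 0.3 on the log2 scale, 25 (37.3%) were within 0.3 and 22 (32.8%) were higher by more than 0.3. Of all 27826 loci, 7.91% were lower, 82.9% within and 9.24% higher in the same comparison. In HL, 57 of the 67 were higher at 3.5 hr than at 1 hr by more than 0.3, 6 were within 0.3 and 4 were lower, against 11.7% higher and 11.6% lower among all loci. All these directions rest on the nearest power of 10, which the digits do not settle, and the classes are given as placed. Of the LL changes, 7 (4 lower, 3 higher) are beyond 1.4 in size, near the limit of 1.66. With these 7 turned, 19 loci (28.4%) would be lower and 23 (34.3%) higher in LL, and 58 higher and 3 lower in HL. None of these time changes was tested, because their groups were used in the choice.

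The same rule with the sign turned gave 80 loci that were lower in HL only at 3.5 hr. Of these, 43 (53.8%) were higher in LL at 3.5 hr than at 1 hr, 31 (38.8%) were within 0.3 and 6 (7.5%) were lower. The loci up only at 3.5 hr were thus spread more evenly over the 3 classes than these, and the difference between both sets was not tested.

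**Figure D2:**
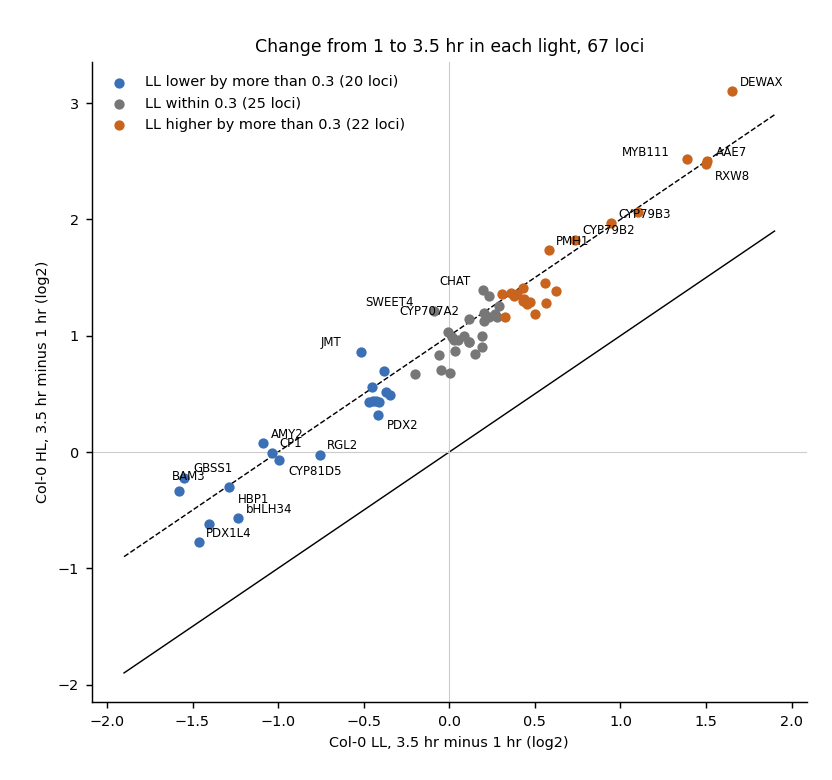
Change from 1 to 3.5 hr of the 67 loci in Col-0, in LL on the x axis and in HL on the y axis, both log2. Points are loci, coloured by their LL change; the full line marks equal change in both lights and the dashed line a change larger by 1 in HL, near which the points lie by the choice of the loci, from BAM3 (-1.58 in LL) to DEWAX (1.65 in LL).

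The first class holds genes whose transcript was lower in LL at 3.5 hr. In 13 of its 20 loci HL stayed closer to the value at 1 hr than LL did, and in the other 7 the HL change was the larger in size. Its LL change had a median of -0.64 (range -1.58 to -0.34) and its HL change a median of 0.20. Its lowest LL change as placed was that of BAM3 (At4g17090), the plastid beta-amylase that releases maltose from starch. Relative to the mean of Col-0 LL at 1 hr, its 3 LL arrays at 3.5 hr read -1.57, -1.56 and -1.61 and its HL arrays -0.51, -0.38 and -0.45. All other LL and HL groups of BAM3, in the 3 accessions, lay between -0.37 and 0.08, so that both lights were low at 3.5 hr and LL was the lower. A power of 10 higher, the changes of BAM3 would be 1.74 in LL and 2.99 in HL, and that of GBSS1 1.77 in LL, which would put both genes in the third class. GBSS1 had LL values of -1.58, -1.34 and -1.73 at 3.5 hr and HL values of -0.24, -0.20 and -0.34. In the HL arrays it stayed within the range of 25 hr (-0.14, -0.36 and -0.26), and as placed the LL arrays at 3.5 hr stood below those of every other group. AMY2 (At1g76130), an alpha-amylase-like gene, read -1.25, -0.89 and -1.12 in LL and -0.04, -0.05 and -0.11 in HL at that time.

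Both genes of vitamin B6 synthesis among the 67 lie in this class. PDX2 (At5g60540) encodes the glutaminase subunit of the enzyme that makes pyridoxal phosphate, and PDX1L4 (At2g38210) is named as a putative relative of the synthase subunit PDX1. PDX2 read -0.60, -0.41 and -0.24 in LL at 3.5 hr and 0.59, 0.68 and 0.58 in HL. Its values in LL were below all those at 1 hr (0.15, -0.13 and -0.02) and its values in HL above all those at 1 hr (0.19, 0.31 and 0.38). As placed, PDX1L4 was lower at 3.5 hr in both lights, at -1.74, -1.31 and -1.34 in LL and -0.60, -0.41 and -0.47 in HL. A power of 10 higher, its changes would be 1.86 in LL and 2.55 in HL. Both sat near the limit of the choice, with changes at 1 hr of 0.29 for PDX2 and 0.28 for PDX1L4.

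HBP1, the transcription factor gene bHLH34 (At3g23210), CP1, the cytochrome P450 gene CYP81D5 (At4g37320) and RGL2 (At3g03450), a DELLA protein that represses gibberellin responses, had the same form. Their LL changes from 1 to 3.5 hr were -1.29, -1.23, -1.03, -0.99 and -0.76 and their HL changes -0.30, -0.57, -0.01, -0.07 and -0.02, in that order. In JMT the difference lay on both sides, with LL values at 3.5 hr of -0.28, -0.57 and -0.70 and HL values of 0.91, 0.64 and 0.67. CRF2 (At4g23750), a cytokinin response factor, was lower by a change of -0.47 in LL and higher by 0.43 in HL. The receptor-like kinase gene ERULUS (At5g61350), known from root hairs, the phosphatase gene TOPP6 (At5g43380) and At2g30830 were likewise lower in LL and higher in HL, as were 10 of the 20 loci by more than 0.3 each way. Of the 2201 loci lower in LL among all loci, 59 were higher in HL by these limits, the chosen 10 included. The choice itself favours this form.

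The second class had LL changes within 0.3, and all its loci were higher in HL by more than 0.3. Over its 25 loci the LL change had a median of 0.11 (range -0.20 to 0.29). The HL change had a median of 1.00 (range 0.67 to 1.39). SWEET4 (At3g28007), a sugar carrier of the plasma membrane, read -0.15, 0.05 and -0.17 in LL at 3.5 hr and 1.28, 0.91 and 0.81 in HL. CYP707A2 (At2g29090), which breaks down abscisic acid, read 0.08, 0.28 and 0.24 in LL and between 1.19 and 1.32 on the HL arrays. At 25 hr its HL arrays were back at 0.32, 0.12 and 0.27, against 0.01, -0.03 and 0.07 in LL. OEP16-1 (At2g28900), a protein of the outer plastid envelope, had HL values of 1.46, 1.33 and 1.28 and LL values of 0.19, 0.40 and 0.09 at 3.5 hr. CHAT (At3g03480), which makes the leaf volatile hexenyl acetate, had HL values of 1.53, 1.22 and 1.17. Its LL values were 0.64, 0.07 and -0.12, with replicate 1 apart from the other arrays.

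The class also holds genes of RNA polymerases, grouped here after their values were seen. The list for the plastid RNA polymerase and its sigma factors had no gene among the 67, and 0 of its 14 genes were called at 3.5 hr. At 25 hr 5 of these 14 were called up and 0 down, with a median change of 0.22, against 2.58% of all loci called up. NRPA1 (At3g57660), the largest subunit of RNA polymerase I, which transcribes ribosomal RNA, read 1.04, 1.08 and 1.21 in HL and 0.37, 0.11 and 0.39 in LL at 3.5 hr. ATRPAC42 (At1g60850), named as a further subunit of that polymerase, read 1.03, 1.18 and 1.02 in HL and 0.31, 0.05 and 0.24 in LL. MGP3 (At1g68990), a mitochondrial RNA polymerase, read 0.87, 1.01 and 0.89 in HL and 0.22, 0.02 and 0.10 in LL. For NRPA1, ATRPAC42 and MGP3 the HL and LL arrays did not overlap at 3.5 hr, as the choice requires. At 1 hr their HL minus LL changes were -0.15, -0.06 and -0.22. At1g01210, annotated as an RNA polymerase subunit, is in this class as well. Its HL minus LL change was 0.165 at 1 hr and 1.03 at 3.5 hr. PRS2 (At1g32380), a synthase of the nucleotide precursor phosphoribosyl pyrophosphate, and ABCC9 (At3g60160), an ABC transporter, had HL changes from 1 to 3.5 hr of 0.87 and 1.03. The transcription factor gene bZIP11 (At4g34590) had an HL change of 0.95 and an LL change of 0.11. The locus At4g34588 next to it had the same digits on every array, so the 67 loci hold 66 different measurements.

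The third class was higher at 3.5 hr in both lights and more so in HL, with a median LL change of 0.53 and a median HL change of 1.37. MYB111 (At5g49330), an activator of flavonol synthesis, read 1.34, 1.55 and 1.28 in LL at 3.5 hr and 2.58, 2.55 and 2.56 in HL. At 25 hr both lights were back, at 0.16, 0.05 and 0.05 in LL and -0.16, 0.08 and -0.07 in HL. AAE7 (At3g16910), an acyl-activating enzyme that uses acetate, read 1.48, 1.56 and 1.47 in LL and 2.72, 2.71 and 2.59 in HL. CYP79B2 (At4g39950) and CYP79B3 (At2g22330) are the paired enzymes that turn tryptophan into indole-3-acetaldoxime, the start of indole glucosinolates. CYP79B2 read 1.19, 0.40 and 0.61 in LL and 1.89, 1.79 and 1.93 in HL, and CYP79B3 read 1.58, 0.42 and 0.84 in LL and 1.92, 1.71 and 1.87 in HL. For both, replicate 1 of LL was the highest LL array and the HL arrays were close together.

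KAT1 (At5g46240), an inward potassium channel of guard cells, was within this class at its border, with an LL change of 0.31 and an HL change of 1.36. Its HL arrays read 1.34, 1.29 and 1.23 and its LL arrays 0.24, 0.36 and 0.33. Of the 7 guard cell markers found, KAT1 was the 1 called up and MYB60 the 1 called down (-0.57), and KAT2, the closest relative of KAT1, had a change of 0.48. Over the 51 markers of 7 cell types and organs, 3 were called up and 4 down at 3.5 hr, against 3.94% and 3.77% of all loci. KAT1, which is up by choice, is among those 3. CAX1 (At2g38170), the vacuolar exchanger that stores Ca2+, had an LL change of 0.43 and an HL minus LL change of 1.07 at 3.5 hr. PWP2 (At1g15440), known from yeast as a part of the complex that processes ribosomal RNA, and PMH1 (At3g22310), a putative mitochondrial RNA helicase, had HL changes of 1.41 and 1.73 and LL changes of 0.43 and 0.58.

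The digits settle no direction by themselves. The LL change of 7 loci was beyond 1.4 in size and thus near 1.66, where both placings are closest in size. For DEWAX the LL arrays at 3.5 hr read 1.61, 1.75 and 1.60 and the HL arrays 2.98, 2.97 and 3.02. A power of 10 lower, its LL change would be -1.67 in place of 1.65, and its HL change -0.22. For RXW8 and AAE7 the alternatives in LL are -1.82 and -1.82, and for At3g56290 the alternative is 1.92. Those of BAM3, GBSS1 and PDX1L4 are given above. The other LL changes also rest on the nearest power of 10. For HBP1, bHLH34, AMY2 and CP1 the alternatives in LL are 2.03, 2.09, 2.24 and 2.29. The difference between HL and LL at 3.5 hr is the same under either placing. The change at 3.5 hr itself could be misplaced only for a locus whose true change was beyond 3.16-fold, and the digits alone do not show which loci these would be.

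**Figure D3:**
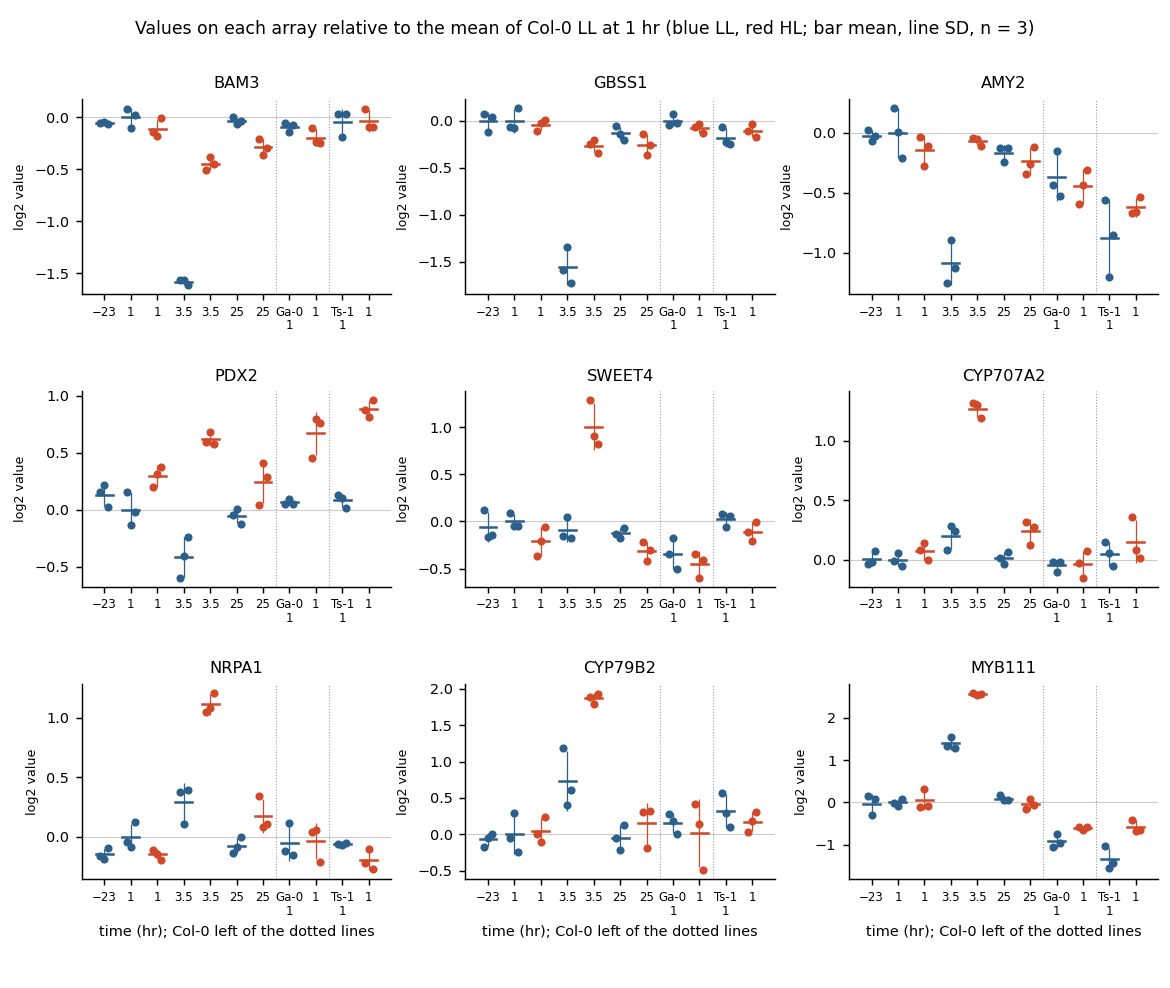
Log2 values of 9 of the 67 loci on all 33 arrays, relative to the mean of Col-0 LL at 1 hr. Blue points are LL arrays and red points HL arrays, with the mean as a bar and the SD as a line (n = 3 per group); time in hr runs along the x axis, with Ga-0 and Ts-1 to the right of the dotted lines. As placed, in BAM3, GBSS1 and AMY2 the LL arrays at 3.5 hr are the lowest of Col-0, in SWEET4, CYP707A2 and NRPA1 the HL arrays at 3.5 hr are the highest, and in CYP79B2 and MYB111 both lights are higher at 3.5 hr.

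The LL plants of the day before were compared with those at 1 hr. At -23 hr the median of the 67 loci relative to Col-0 LL at 1 hr was -0.04 (range -0.34 to 0.21), and it was -0.009 over all loci. Of the 67 loci 0 were called in this comparison by limma, against 0.284% of all loci (0.262% up and 0.0216% down), and 10 had an unadjusted p below 0.05 (14.9%, against 7.43% of all loci). The smallest adjusted p was 0.19. The LL group at 1 hr was also used in the choice, so this comparison is not fully independent of it. The -23 hr group was also placed at the power of 10 nearest to LL at 1 hr. A difference beyond 3.16-fold between both could therefore not appear. By array, the median over the 67 loci lay between -0.05 and 0.02 in the 9 LL arrays of Col-0 at -23, 1 and 25 hr, between 0.07 and 0.22 in LL at 3.5 hr, and between 0.98 and 1.04 in HL at 3.5 hr. It was between 0.01 and 0.07 in HL at 1 hr and between 0.10 and 0.20 in HL at 25 hr.

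Whether these loci respond to HL at 1 hr in other accessions was tested in Ga-0 and Ts-1. Most did not pass the test, and those that did were mostly higher in HL. In Ga-0, 3 of the 67 loci were called up and 1 down, which is 5.97% against 2.23% of all loci (1.25% up and 0.974% down). The median change was 0.06 (range -0.65 to 0.71), against -0.002 over all loci, and 47 of 67 changes (70.1%) were above 0, against 49.3% of all loci. In Ts-1, 7 were called up and 1 down, which is 11.9% against 2.41% of all loci (1.47% up and 0.938% down). The median was 0.09 (range -0.61 to 0.80) and 58.2% of changes were above 0, against 48.4% of all loci. Of the 80 loci lower only at 3.5 hr, 0 were called up and 3 down in Ga-0, and 2 up and 4 down in Ts-1. The loci in each set were taken from the same Col-0 arrays, and no test was made of the counts.

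PDX2 was called up in both accessions. Its HL arrays read 0.45, 0.80 and 0.76 in Ga-0 and its LL arrays 0.05, 0.09 and 0.04, with a change of 0.61 ± 0.095 (SE, adjusted p = 5.1e-05). In Ts-1 the HL arrays read 0.87, 0.81 and 0.96 and the LL arrays 0.13, 0.10 and 0.02, a change of 0.80 ± 0.095 (adjusted p = 4.7e-07). The arrays did not overlap in either accession. CP1 was the other gene called up in both, by 0.57 ± 0.11 in Ga-0 (SE, adjusted p = 0.00076) and by 0.69 ± 0.11 in the Ts-1 accession (adjusted p = 4.5e-05). Its Ga-0 arrays read 0.11, 0.43 and 0.34 in HL and -0.33, -0.14 and -0.35 in LL, and its Ts-1 arrays 0.13, 0.08 and 0.04 in HL and -0.55, -0.89 and -0.39 in LL.

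DEWAX was called down in both accessions, against its direction in Col-0 at 3.5 hr. Its HL arrays read -0.25, -0.14 and -0.29 in Ga-0 and 0.03, -0.03 and -0.14 in Ts-1, and its LL arrays 0.38, 0.30 and 0.60 and 0.51, 0.60 and 0.58. The changes were -0.65 ± 0.087 (adjusted p = 3.6e-06) and -0.61 ± 0.087 (adjusted p = 8.5e-06). In Col-0 its change at 1 hr was -0.11 and at 25 hr -0.26. At2g30830 was called up in Ga-0 alone, with HL arrays at 0.67, 0.87 and 0.63, LL arrays at 0.02, 0.18 and -0.16 and a change of 0.71 ± 0.098 (adjusted p = 7.3e-06). Its change in Ts-1 was 0.21, which did not pass (adjusted p = 0.27).

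In Ts-1 alone 5 further loci were called up. PDX1L4 read 0.35, 0.35 and 0.56 in HL and -0.24, -0.50 and -0.34 in LL, a change of 0.78 ± 0.13 (adjusted p = 0.00014). In Ga-0 its change was 0.08, with HL arrays of -0.23, -0.06 and -0.32 that overlapped the LL arrays of -0.47, -0.14 and -0.23. MYB111 had a change of 0.76 ± 0.12 in Ts-1 (adjusted p = 4.7e-05) and of 0.32 in Ga-0. At5g42760, annotated as a leucine carboxyl methyltransferase, had a change of 0.75 ± 0.093 in Ts-1 (adjusted p = 7.8e-07) and of 0.29 in Ga-0. The changes of bHLH34 were 0.55 and 0.39, and those of AKR4C8 (At2g37760), an aldo-keto reductase, 0.54 and 0.11. Without LL replicate 3 of Ts-1, AKR4C8 had 0.45 and did not pass. In Ga-0, bHLH34 had an adjusted p of 0.0012 and a change below the 1.4-fold limit.

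A call in one accession and not in the other does not show a difference between them. The difference of the light response between Ga-0 and Ts-1 was called for 0 of the 67 loci by limma, against 0.298% of all loci (0.108% up and 0.19% down). At an unadjusted p below 0.05 there were 11 (16.4%, against 8.49% of all loci), and the smallest adjusted p was 0.12, for PDX1L4 with a difference of -0.70 ± 0.19 (SE). In a robust fit, in which 0.607% of all loci were called up and 0.69% down, 3 of the 67 passed, namely PDX1L4 (-0.72, adjusted p = 0.0014), MYB111 (-0.51, adjusted p = 0.017) and At2g30830 (0.50, adjusted p = 0.011).

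**Figure D4:**
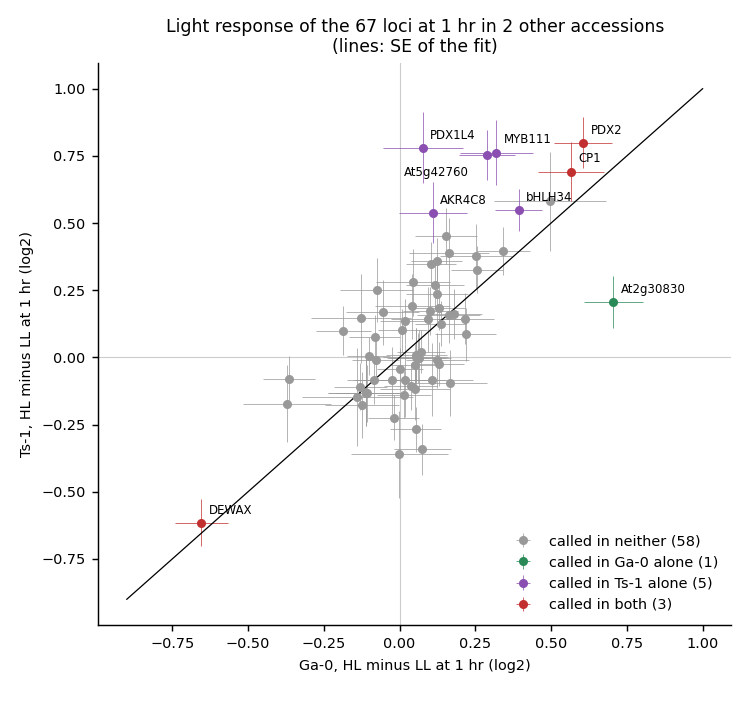
HL minus LL change at 1 hr of the 67 loci in Ga-0 (x axis) and Ts-1 (y axis), log2, with the SE of the fit as lines. Coloured points passed the test in Ga-0 alone (1), in Ts-1 alone (5) or in both (3: PDX2, CP1 and DEWAX), 58 in neither, and the line marks equal change.

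The first class, with lower LL values at 3.5 hr in Col-0, held all 3 loci called up in Ga-0 and 4 of the 7 called up in Ts-1. Its median change at 1 hr was 0.10 for Ga-0 and 0.23 for Ts-1, and 17 of its 20 loci (85%) were above 0 in Ts-1. Of the 2201 loci lower in LL at 3.5 hr, 5.86% were called up in Ga-0 and 9.36% in Ts-1, and 65.5% were above 0 in Ts-1, with a median of 0.08. Whether the 20 loci differ from these was not tested. The second class had medians of 0.04 and -0.01 and the third of 0.07 and -0.002, against -0.04 and -0.09 for all loci higher in LL. Changes above 0 made up 81.8% of the third class for Ga-0, where all loci higher in LL had 41.3%. For Ts-1 these shares were 50% and 28.4%. The second class had 64% above 0 for Ga-0 and 44% for Ts-1, beside 50.2% and 49.1% of all loci within 0.3 in LL. The first class had 65% above 0 for Ga-0, beside 49.4% of all loci lower in LL. None of these shares was tested. The starch genes of the first class were not among the loci called. BAM3 had changes of -0.10 in Ga-0 and 0.01 in Ts-1, and GBSS1 of -0.08 and 0.08.

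In LL at 1 hr, Ga-0 and Ts-1 themselves differed in 7 of the 67 loci, 4 higher and 3 lower in Ga-0, which is 10.4% against 5.44% of all loci (2.77% higher and 2.67% lower). At1g73630 was lower in Ga-0, with arrays at -0.67, -0.47 and -0.70 against 1.08, 0.67 and 0.93 in Ts-1. The difference was -1.51 ± 0.12 (SE, adjusted p = 3.2e-11 by limma). Each accession was placed by Col-0 LL at 1 hr and not by the other accession, so the direction of this difference rests on that placing. At3g14395 was higher in Ga-0 by 1.03 ± 0.18 (adjusted p = 1e-04). UP6 (At1g16730, 0.57), CHAT (0.54) and AMY2 (0.50) were higher as well, and At1g01210 (-0.62), annotated as an RNA polymerase subunit, and the copper amine oxidase gene At4g12290 (-0.57) were lower. AMY2 did not pass without Ga-0 replicate 2 (0.39) or Ts-1 replicate 2 (0.34), CHAT without Ts-1 replicate 2 (0.48), nor At4g12290 without Ga-0 replicate 2 (-0.44) or Ts-1 replicate 3 (-0.48). A difference in transcript level and a difference in the match of the probes to the RNA of the accession cannot be told apart here.

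Of 27 gene lists for leaf metabolism, hormones and growth, 8 held at least 1 of the 67 loci, 10 loci in all. The counts below leave the chosen loci out, since these are up by choice, and stand beside 3.94% of all loci called up and 3.77% down at 3.5 hr. Of the 20 other genes of starch breakdown, 7 were called up and 1 down, with a median of 0.33, against -0.009 over all loci. The isoamylase gene ISA3 (1.07), the glucan water dikinase gene SEX1 (0.75), the phosphoglucan water dikinase gene PWD (0.75) and LSF1 (0.68) were higher, beside the chosen AMY2 (1.02) and BAM3 (1.13), and BMY3 was lower (-0.55). ISA3 and SEX4 (0.65 at 3.5 hr) had changes of 0.90 and 0.78 at 25 hr. Of the 23 other genes of starch and sucrose synthesis, 5 were called up and 1 down. APL3, a large subunit of the enzyme that makes ADP-glucose, had changes of 1.05, 1.29 and 1.42 at 1, 3.5 and 25 hr. At 1 hr 0 of these 23 genes were called either way, so the APL3 change of 1.05 did not pass the test. Of the 25 other sugar transporters 6 were called up and 3 down, with SAG29 (1.36), SWEET13 (0.80) and SWEET1 (0.74) beside SWEET4, and STP1 lower (-0.60).

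Ribosome biogenesis held 1 chosen locus, PWP2. Of its 29 other genes 14 were called up and 1 down at 3.5 hr, 0 either way at 1 hr and 1 up at 25 hr, with medians of 0.47, -0.01 and 0.18 at 3.5, 1 and 25 hr. RID2 (1.04), FIB2 (1.02), PUM24 (0.91) and NUC-L1 (0.85) had such changes at 3.5 hr, and lay outside the choice through a change at 25 hr of 0.38, 0.64, 0.33 and 0.44. Of the 21 other genes of flavonoid and anthocyanin synthesis, 10 were called up and 1 down. The enzyme genes F3H (1.28), FLS1 (1.11) and TT4 (0.99) were higher beside MYB111, and TT4 and FLS1 were at 1.03 and 1.15 at 25 hr.

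Of the 24 other genes of glucosinolate synthesis, 3 were called up and 2 down, beside the chosen CYP79B2 (1.14) and CYP79B3 (0.88). TSB1 (0.63), a tryptophan synthase subunit, and BCAT4 (0.55) were higher, and MYB51 (-0.56) and CYP81F2 (-0.55) lower. Of the 25 other genes of abscisic acid, 5 were called up and 0 down. CYP707A4, a relative of CYP707A2 with the same reaction, had 0.92, 0.88 and 0.90 at the 3 time-points. The gibberellin and brassinosteroid list had, beside the chosen RGL2, 0 of 25 other genes called up and 4 down, BAS1 (-1.14), BES1 (-0.80), GA3OX1 (-0.64) and CPD (-0.62).

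**Figure D5:**
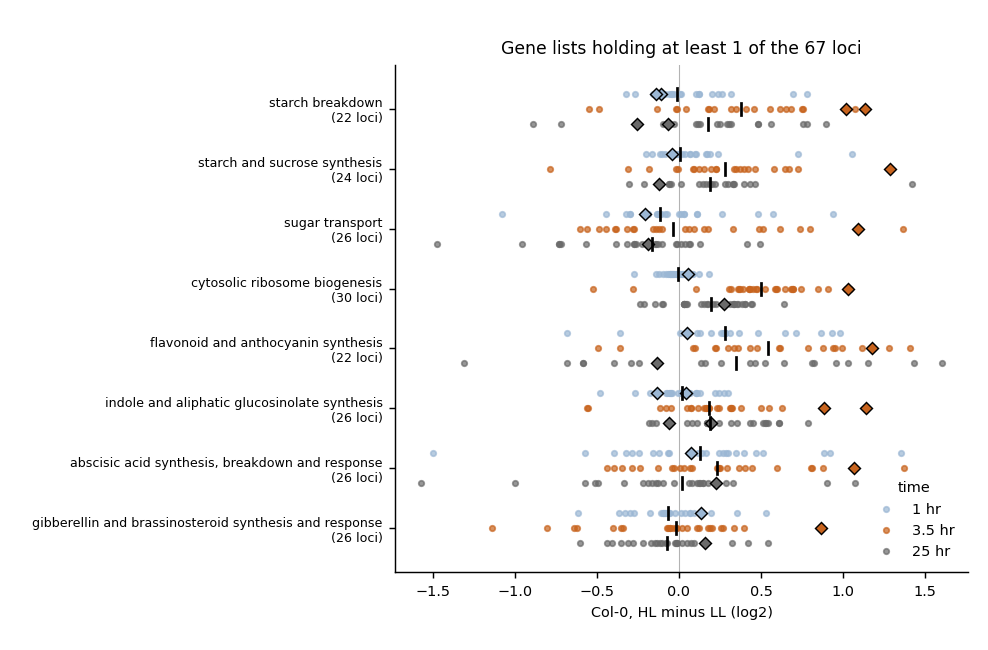
HL minus LL change in Col-0 (x axis, log2) at 1, 3.5 and 25 hr for the genes of the 8 lists with at least 1 of the 67 loci. Diamonds are the chosen loci, circles other genes of the list and black bars the list medians with the chosen loci included, which at 3.5 hr run from -0.03 for sugar transport to 0.54 for flavonoid and anthocyanin synthesis.

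At the limits of the choice the loci formed no gap. Just above 0.8 at 3.5 hr were MGP3 (0.81), At1g07300 (0.81) and At1g51380 (0.82), and just below it At3g27865 (0.80), TOM7-2 (0.79) and At5g54930 (0.78). The upper limit of 1.5 left out AMT1;2 (1.51), NAP (1.63) and At1g19960 (1.64). At 1 hr RXW8, PDX2 and At1g63530 were inside at 0.30, 0.29 and 0.28, and At3g48460, SPS1 and HYH outside at 0.30, 0.31 and 0.31. At 25 hr PDX2, HBP1 and At2g37990 were inside at 0.30, 0.30 and 0.29, and At3g10530, At4g16146 and At5g54910 outside at 0.30, 0.31 and 0.31. At3g28220 (0.85) met every limit but had overlapping arrays.

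The 67 loci lie on all 5 nuclear chromosomes, 23 on chromosome 1, 10 on chromosome 2, 14 on chromosome 3, 10 on chromosome 4 and 10 on chromosome 5. In the order of loci 3 pairs were within 10 loci of each other, namely bZIP11 with At4g34588, CAX1 with PDX1L4, and RGL2 with CHAT. Of the 67, 66 were found in the TAIR10.1 annotation and 35 have a gene symbol there. The remaining loci, such as At3g56290 (0.97 at 3.5 hr), At3g02832 (1.00) and At1g65030 (0.98), are given by locus.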

How the data were processed

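Rosette RNA of 33 samples was hybridized to AraGene 1.1ST arrays. The authors extracted the values, annotated probes by locus and normalized by RMA, and they fitted linear models with limma. The deposited values were treated as a score, because they are linear RMA values reduced to their digits (up to 10) with no decimal separator, in 27826 loci. Group and replicate follow the labels. Digits were read as a number from 1 to 10 and log2 taken, within a group each array took the power of 10 that gave the smallest spread, LL groups closest to Col-0 LL at 1 hr, and each HL group closest to its LL group. This replaced the planned use of log2 values as deposited. limma 3.58.1 in R 4.3.3 fitted 1 mean per group over all 33 arrays (lmFit, eBayes, 22 residual degrees of freedom), with Benjamini-Hochberg adjustment over all loci in each contrast, so adjusted p and SE are from that fit. Placing, choice and fit were run on simulated digits. The simulation had no change in LL over time, so it could not test the placing of the LL changes. Precision is limited by how few arrays there are, and p-values measure the spread between pools of rosettes.

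The members and the gene lists were chosen with earlier results of these data known. Genes were named as the largest changes with a symbol, those nearest the limits, those called in Ga-0 or Ts-1, the extremes of the LL and HL changes, and up to 4 members and 4 other genes per list. List symbols were matched to TAIR10.1 by symbol or synonym, and 13 ambiguous symbols were resolved by identity after the lists were written (8 to the gene meant, 5 left out). A grouping by product description was void, since under 80% of the loci have a name, and promoter motifs were not searched. A filter on dim loci was not possible without levels.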

Additional observations from a re-analysis of the deposited data

How the results depend on the processing

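Without the fold limit, 7 of the 67 loci were called in Ga-0 (4 with it; 5.57% of all loci without it), 14 in Ts-1 (8 with it; 6.43% of all loci) and 18 between Ga-0 and Ts-1 in LL (7 with it; 14.9% of all loci). The robust fit called 3 loci for the difference of response between accessions, in place of 0, and had not converged for 318 loci. With each replicate left out in turn the counts were 4 to 6 in Ga-0, 7 to 11 in Ts-1, 5 to 10 between the accessions in LL, and 0 to 0 both for the difference of response and for -23 hr against 1 hr. Median centring and a fit on the compared groups alone stayed within 1.5 times each count. The replicate numbers did not pair the arrays, since over 165 same-numbered pairs of arrays in different groups the deviations had a mean correlation of 0.015 (range -0.224 to 0.266). With the replicate number as a block the counts were 4 in Ga-0, 9 in Ts-1, 7 between the accessions in LL and 0 for each of the other comparisons, and no call of a locus named as called was lost. Of 209 values of the 19 called changes under alternatives, 201 passed the test in the same direction, 8 did not pass (AMY2, At4g12290 and CHAT between the accessions in LL, AKR4C8 in Ts-1) and 0 were reversed.

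The choice gave 30 loci with limits of 0.2 at 1 and 25 hr, all among the 67. With group medians it gave 63 (50 of them shared), with centred arrays 65 (62 shared), without the condition on overlap 68, and with a replicate left out 62 to 82, the highest without LL replicate 1 at 3.5 hr. The number of loci lower in LL at 3.5 hr was 19 to 21 and that of loci higher 20 to 23 with a replicate left out. A filter on dim loci and the motif search on one strand were not run, because levels and promoter sequences were not used here.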
